A study of Mus musculus with 6 samples.

Results

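The 31 genes described here make cholesterol and fatty acids or control that synthesis, and all 31 were found by symbol among the 23179 gene rows of 6 RNA sequencing libraries from mouse pancreatic islets. The members were named by symbol and split by role into 17 genes of the sterol branch, 9 of the fatty acid branch and 5 regulators. The mice were C57BL/6J males, 10 to 14 weeks old, either wild type (WT) or Ffar3-/- (KO), and each of the 3 libraries per group held islets pooled from 2 pancreata. Ffar3 encodes a receptor of short-chain fatty acids, and the cells in which it was lost are not restricted by any driver named in the labels. The question was how the expression of these genes differed between the KO and the WT libraries, and whether the sterol branch differed in the same way as the fatty acid branch.

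Cells build sterols from acetyl-CoA through mevalonate, farnesyl diphosphate and squalene, and build fatty acids from the same acetyl-CoA through malonyl-CoA. Both branches are transcribed under the SREBP factors, membrane proteins held in the endoplasmic reticulum by Scap and the Insig proteins while sterols are plentiful, and released when sterols run low. The factor made from Srebf2 acts mainly on sterol genes, and the shorter product of Srebf1 acts mainly on fatty acid genes. In beta cells, citrate export by the mitochondria feeds the cytosolic enzymes Acly and Me1.

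Levels are in FPKM, a fragment count divided by transcript length and by a scaling factor for the library. The libraries were not scaled to equal totals: the summed FPKM was 416935 in KO replicate 1 and 1.06e+06 in KO replicate 3. Log2 differences are KO minus WT on log2(FPKM + 1), which understates changes of low values. A gene was called when its adjusted p in limma, over the 11669 rows with a mean of at least 1 FPKM, was under 0.05. The WT libraries held 4.69, 5.26 and 6.68 FPKM of the targeted gene Ffar3, and the KO libraries 0, 0 and 0.105 FPKM. The islet peptide gene Iapp lay between 27415 and 36606 FPKM in all 6 libraries, whereas Ins2 was listed at 0 in each and Ins1 at 0 in 4 of them. Transcripts of 24 acinar markers took 6.05 to 9.02% of the summed FPKM in WT, 5.83% in KO replicate 1, and 35.0% and 49.2% in KO replicates 2 and 3. Of these 24 markers, 23 were tested, 1 was called higher and 0 lower, and their summed level was 25954 to 40741 FPKM in WT and 24309 to 519881 FPKM in KO. Total depth is unknown, and from the steps between low values each FPKM stood for the fewest fragments in KO replicate 3, 59.6% of the number in WT replicate 1, against 89.6 to 119% in the others. In bulk tissue, fewer cells of a type and less RNA per cell cannot be told apart.

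Of the 30 members tested, 9 were higher in KO (Fdft1, Sqle, Lss, Sc5d, Scd1, Me1, Elovl6, Srebf2 and Insig2), 2 were lower (Mvk and Acly) and 19 were not called. Over all tested rows 39.9% were called, 20.3% higher and 19.6% lower. The median log2 difference was 0.11 over the members and -0.01 over all tested rows. The 3 KO libraries lay above the 3 WT libraries for 11 members and below them for 2, against 27.8% and 28.5% of all tested rows. With KO replicate 1 alone against WT, the KO library without high acinar transcripts, 7 members were called higher and 2 lower, beside 15.2% and 10.9% of all rows. That fit assumes that the lone library varies like the WT libraries. With values rescaled to equal sums outside the acinar list, which lowered the median of all rows to -0.15, the members called were 4 higher and 2 lower, and over all rows 730 (6.26%) were higher and 1410 (12.1%) lower, against 2368 and 2289 with the values as deposited.

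**Figure D1:**
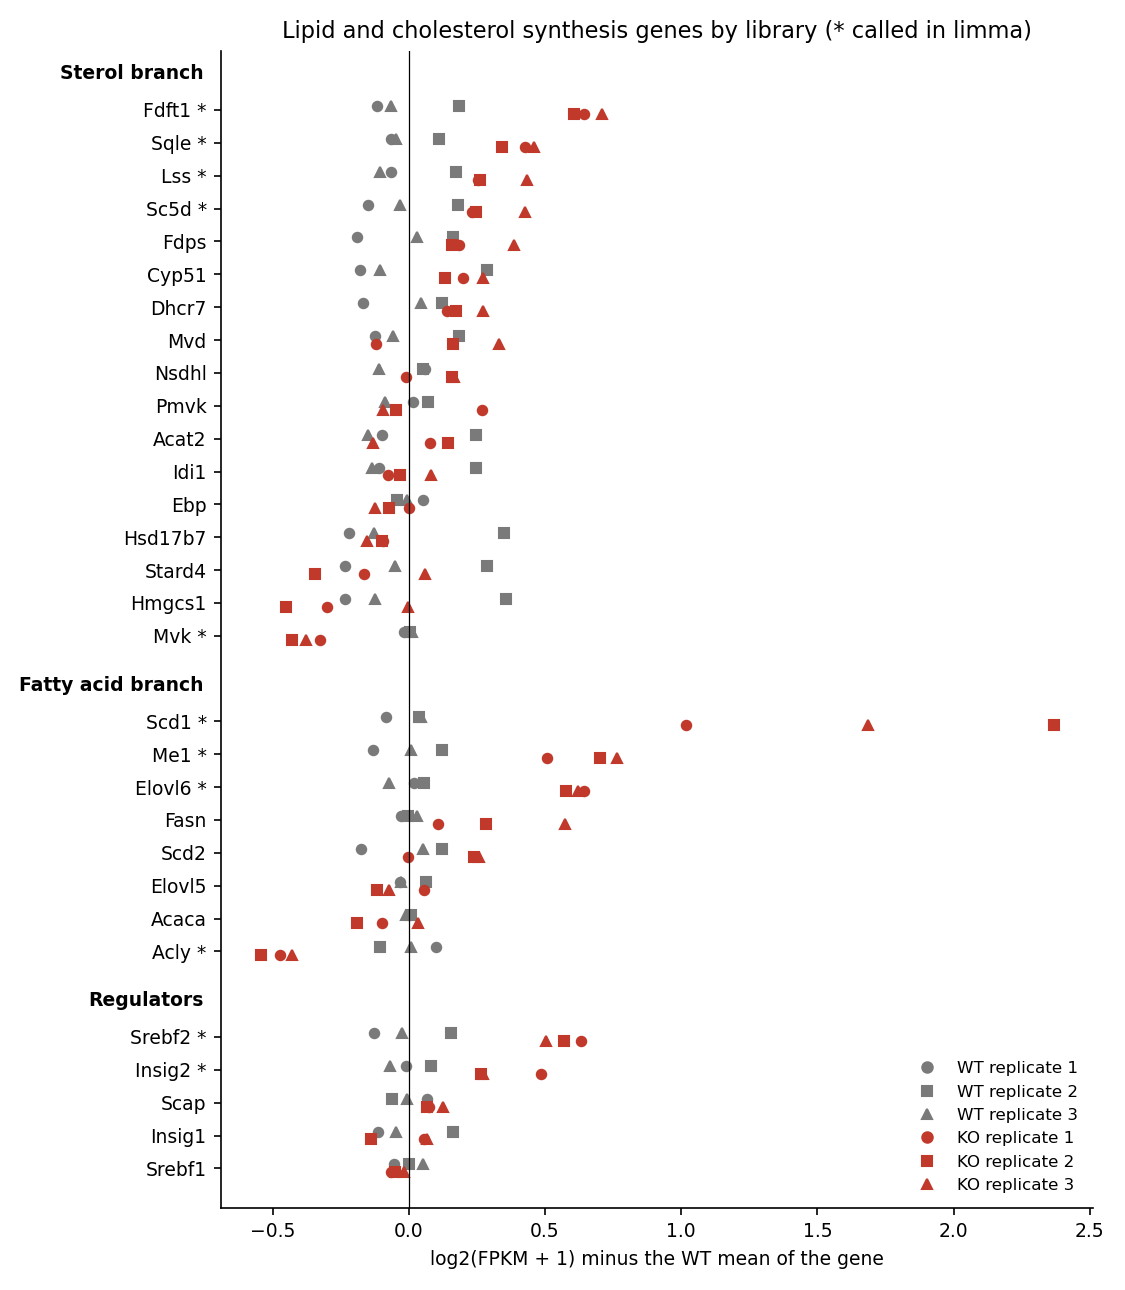
Each row is a tested member, and the horizontal axis gives log2(FPKM + 1) in a library minus the WT mean of that gene; grey points are WT and red points KO libraries, with a shape for each replicate number. Among the sterol genes Fdft1 and Sqle stood clear of WT and Mvk below it, Scd1 had the widest spread among KO libraries, and WT replicate 2 lay to the right of the other WT libraries for most sterol genes.

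The regulators differed between the paralogs. Srebf2, which encodes the factor that drives sterol genes, was at 35.6, 43.5 and 38.3 FPKM in WT and at 61.1, 58.3 and 55.7 FPKM in the KO libraries. The lowest KO library exceeded the highest WT library, and the mean rose from 39.2 ± 4.03 FPKM in WT to 58.4 ± 2.69 FPKM in KO (SD, n = 3 per group; log2 difference 0.57, SE 0.08, limma adjusted p = 0.0032). Srebf2 was called with each library left out, but not with equal sums outside the acinar list (log2 difference 0.40, adjusted p = 0.11). With the insulin rows also left out of those sums, a setting chosen after seeing the data, it was called.

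Srebf1, its paralog, was at 32.2, 33.5 and 34.8 FPKM in WT and at 32.0, 32.3 and 33.1 FPKM in KO, with overlapping groups (log2 difference -0.04, SE 0.05, adjusted p = 0.52). Exons of Srebf1 overlap those of Rai1 on the other strand, and the strand setting of the authors' counting is not known here. Rai1 was called higher (6.91 ± 0.156 FPKM in WT, 8.67 ± 0.601 in KO, log2 difference 0.29, adjusted p = 0.015). The ratio of Srebf2 to Srebf1 within a library was 1.11, 1.30 and 1.10 in WT and 1.91, 1.81 and 1.68 in KO. This ratio does not depend on the scaling between libraries, and it was higher in each KO library than in any WT library.

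Insig2, an endoplasmic reticulum protein that holds Scap and the SREBP precursors, was at 22.5, 24.0 and 21.5 FPKM in WT and at 32.1, 27.4 and 27.6 FPKM in KO. All KO values lay above the WT values (log2 difference 0.34, SE 0.08, adjusted p = 0.014). The call was lost without WT replicate 1 (adjusted p = 0.058), without WT replicate 3 (0.062), and with equal sums outside the acinar list (log2 difference 0.18, adjusted p = 0.44). Insig1, the paralog that SREBP factors themselves induce and the regulator with the highest mean, was at 124, 150 and 130 FPKM in WT and 140, 122 and 141 FPKM in KO (log2 difference -0.01, SE 0.10, adjusted p = 0.96). The ratio of Insig2 to Insig1 was 0.181, 0.160 and 0.166 in WT and 0.229, 0.225 and 0.196 in KO. Scap, the escort of the SREBP precursors, was at 19.2 ± 0.906 FPKM in WT and at 20.5 ± 0.476 FPKM in KO libraries (log2 difference 0.09, SE 0.06, adjusted p = 0.23). In all, 2 of the 5 regulators rose and 3 were not called, beside 20.3% called higher over all tested rows. The median of the regulators, 0.09, turned to -0.07 with equal sums outside the acinar list, where the median of all rows moved from -0.01 to -0.15.

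In the sterol branch, 4 of 17 genes rose, 1 fell and 12 were not called. Over all tested rows 20.3% were called higher and 19.6% lower. The branch had a median log2 difference of 0.10, which turned to -0.04 with equal sums outside the acinar list. That setting also moved the median of all tested rows, from -0.01 to -0.15. The smallest adjusted p values were at the squalene steps and Mvk. Fdft1, squalene synthase, the enzyme that commits farnesyl diphosphate to sterols, was at 28.3, 35.1 and 29.4 FPKM in WT and at 48.6, 47.4 and 51.0 FPKM in KO. Its groups were far apart, and the mean rose from 30.9 ± 3.64 FPKM in WT to 49.0 ± 1.83 FPKM in KO (log2 difference 0.65, SE 0.09, adjusted p = 0.0023). Fdft1 was called in every fit run, and in KO replicate 1 alone its log2 difference was 0.64 (adjusted p = 0.016). Its exons overlap those of the protease gene Ctsb on the other strand, which also rose, from 63.1 ± 1.28 to 79.5 ± 2.87 FPKM (log2 difference 0.33, adjusted p = 0.0051), so without a known strand setting the reads of the overlap cannot be told apart.

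Sqle, squalene epoxidase, the next enzyme, was at 72.1, 81.7 and 73.0 FPKM in WT and at 102, 96.0 and 104 FPKM in KO. No KO library fell into the WT range (log2 difference 0.41, SE 0.07, adjusted p = 0.0056). In KO replicate 1 alone the difference was 0.43 (adjusted p = 0.018), while with equal sums outside the acinar list the call was lost (0.25, adjusted p = 0.24). Lss, lanosterol synthase, which closes the ring, was at 11.4, 13.7 and 11.1 FPKM in WT and at 14.5, 14.6 and 16.6 FPKM in KO (log2 difference 0.32, SE 0.09, adjusted p = 0.033). Sc5d, a late desaturase of the pathway, was at 20.2, 25.7 and 22 FPKM in WT and at 26.7, 26.9 and 30.6 FPKM in KO (log2 difference 0.30, SE 0.10, adjusted p = 0.046).

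Lss and Sc5d passed by a narrow margin: the gap between the highest WT library, WT replicate 2, and the lowest KO library was small. Both calls were lost in KO replicate 1 alone (adjusted p = 0.17 for Lss and 0.21 for Sc5d), in a fit that included the acinar level (0.13 and 0.17), and with no filter on low values (0.054 and 0.071). Without WT replicate 1 the adjusted p was 0.11 for Lss and 0.15 for Sc5d, without WT replicate 3 0.12 and 0.13, without KO replicate 2 0.058 and 0.077, and without KO replicate 3 0.079 and 0.11. The log2 difference of Lss stayed between 0.16 and 0.40 over all alternatives, and that of Sc5d between 0.14 and 0.39.

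Mvk, mevalonate kinase, was the only sterol gene called lower. It was at 5.65, 5.75 and 5.78 FPKM in WT and at 4.36, 4 and 4.18 FPKM in KO, with both groups tight and apart (log2 difference -0.38, SE 0.06, adjusted p = 0.0051). The call held in every fit in which Mvk was tested, with adjusted p from 0.0037 to 0.033, and a filter at a mean of 5 FPKM left Mvk out. The gene lies at chr5:114444269-114460591 on the plus strand (GENCODE M21, GRCm38), and Mmab, an enzyme of cobalamin metabolism, lies head to head with it at chr5:114431034-114444060 on the minus strand, with 209 bp between the annotated starts. Mmab, which is no member and was looked up after the values of Mvk were seen, was at 6.92, 6.13 and 6.83 FPKM in WT and at 4.82, 3.93 and 3.73 FPKM in KO (log2 difference -0.57, SE 0.10, adjusted p = 0.0054). The KO libraries of both neighbours lay below all WT libraries.

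The 12 other sterol genes were not called. Hmgcs1, HMG-CoA synthase of the cytosol and the sterol gene with the highest mean, was at 125, 189 and 135 FPKM in WT and at 119, 108 and 147 FPKM in KO (log2 difference -0.25, SE 0.18, adjusted p = 0.28). The groups overlapped, and WT replicate 2 was the highest of the 6 libraries. Fdps, farnesyl diphosphate synthase, was at 64.3, 82.4 and 75.2 FPKM in WT and 83.7, 82.3 and 96.4 FPKM in KO libraries (log2 difference 0.24, SE 0.11, adjusted p = 0.11), with 1 KO library just below the highest WT library. Cyp51, lanosterol demethylase, was at 27.6, 38.6 and 29.2 FPKM in WT and 36.3, 34.6 and 38.2 FPKM in KO libraries (log2 difference 0.20, adjusted p = 0.21), and its exons overlap those of Akap9 on the other strand. Without WT replicate 2 the log2 difference of Cyp51 was 0.35 and it was called (adjusted p = 0.020). Dhcr7, which makes cholesterol from its last precursor, lay higher in each KO library, at 11.2, 11.5 and 12.4 FPKM against 8.89, 11.1 and 10.4 FPKM in WT, without a call (adjusted p = 0.11).

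The remaining 8 uncalled sterol genes overlapped between the groups. The isomerase Idi1 was at 36.9 ± 5.82 FPKM in WT and at 36.4 ± 2.11 FPKM in KO libraries, and the sterol carrier Stard4 at 20.6 ± 4.06 and 18.3 ± 2.72 FPKM. The mevalonate pathway enzymes Pmvk and Mvd were at 22.4 ± 1.30 and 10.3 ± 1.30 FPKM in WT and at 23.2 ± 3.44 and 11.3 ± 1.91 FPKM in KO. Nsdhl, Hsd17b7 and Ebp, which act after lanosterol, were at 6.10 ± 0.464, 5.91 ± 1.53 and 19.1 ± 0.676 FPKM in WT and at 6.63 ± 0.510, 5.28 ± 0.143 and 18.2 ± 0.831 FPKM in KO. Acat2, the cytosolic thiolase that starts the branch, was at 3.49 ± 0.694 and 3.56 ± 0.442 FPKM, and it has a near copy in the mouse, Acat3, with which reads may be shared (Acat3 was at 6.06 ± 0.512 and 6.24 ± 0.553 FPKM). None of these 8 was called in any alternative fit.

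**Figure D2:**
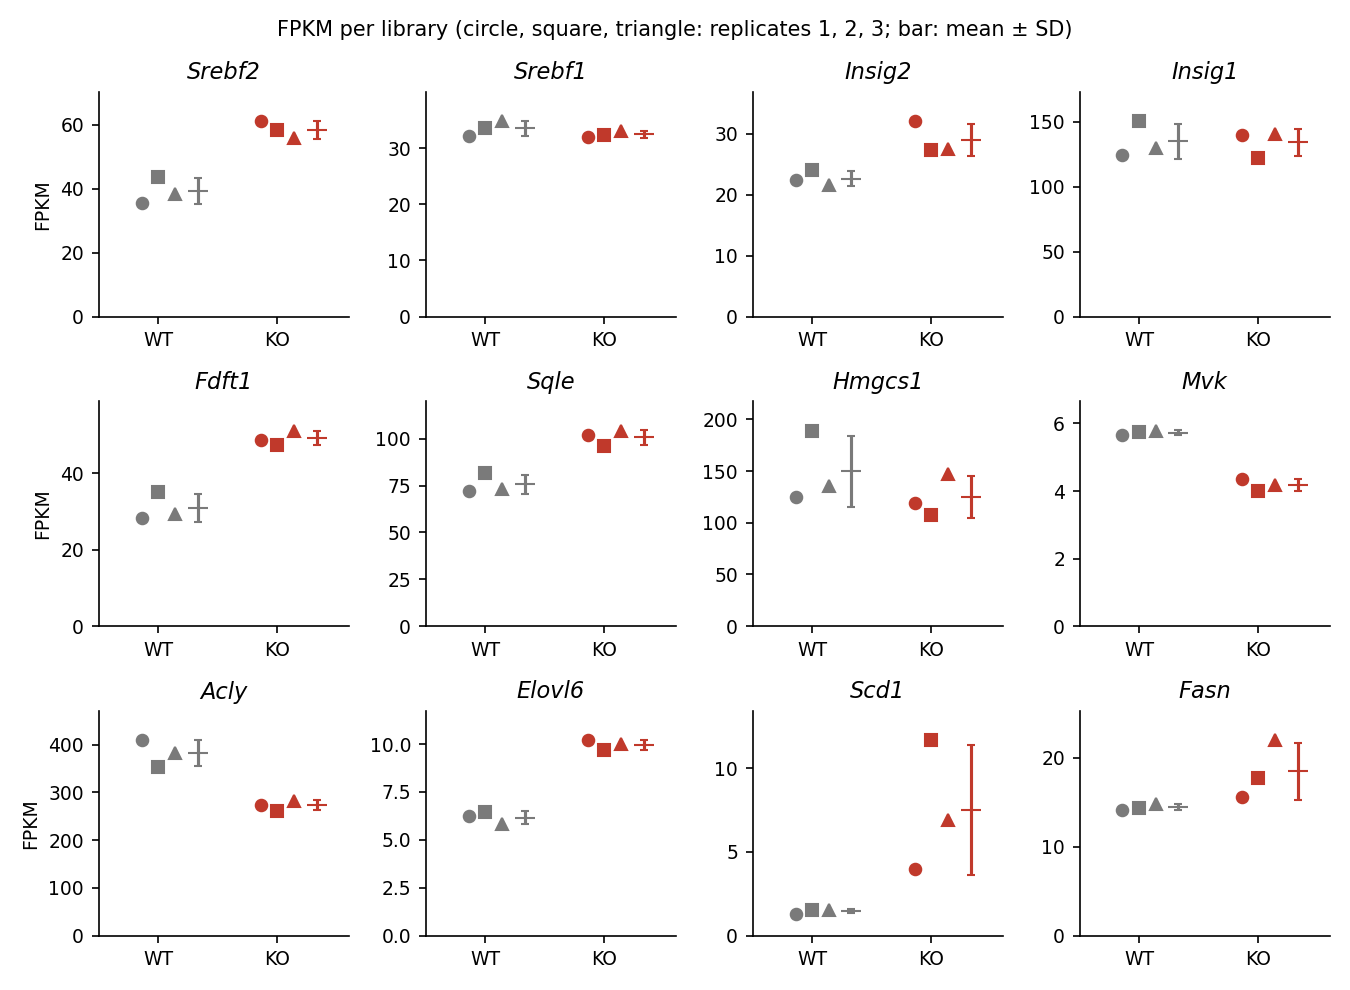
FPKM of 12 members in each library (vertical axis from 0), with circles, squares and triangles for replicates 1, 2 and 3 and a bar for the mean ± SD of each group. Srebf2, Insig2, Fdft1, Sqle, Elovl6 and Scd1 lay higher in all KO libraries, Mvk and Acly lower, and Srebf1, Insig1 and Hmgcs1 overlapped.

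The sterol genes varied together within the WT group. WT replicate 2 was the highest WT library for 14 of 17 sterol genes, 5 of 8 tested fatty acid genes and 3 of 5 regulators, against 35.5% of all tested rows. The level in WT replicate 2 over the mean of WT replicates 1 and 3 had a median of 1.22 over the sterol genes, 1.07 over the fatty acid genes and 1.09 over the regulators, beside 0.996 over all tested rows. The ratio was 1.52 for Hsd17b7, 1.45 for Hmgcs1, 1.39 for Acat2, 1.37 for Stard4, 1.36 for Cyp51 and 1.30 for Idi1. In 10 of 17 sterol genes, 0 of 8 fatty acid genes and 0 of 5 regulators it exceeded 1.2, the level that 5% of the rows with values in all WT libraries exceed. Ebp (0.952) and Mvk (1.01) had the lowest ratios of the branch. Among the KO libraries, KO replicate 3 was the highest for 12 of 17 sterol genes, beside 35.7% of all tested rows. This was not particular to the sterol branch, as it was also the highest for 6 of 9 fatty acid genes (Acacb included) and 3 of 5 regulators.

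Of these 10 genes, 3 (Fdft1, Lss and Sc5d) were called between KO and WT and 7 were not. Hsd17b7 was at 7.66 FPKM in WT replicate 2 and between 4.85 and 5.37 FPKM in the 5 other libraries, and Idi1 was at 43.6 FPKM there and between 33.2 and 38.7 in the others. Among cholesterol export genes, the transporters Abca1 and Abcg1, which LXR factors induce when sterols are plentiful, were lowest in WT replicate 2 among the WT libraries, at 19 against 25.4 and 22.9 FPKM and at 13.6 against 16.1 and 18.0 FPKM. These transporters were picked out after their values were seen, and neither was called between the groups (adjusted p = 0.17 and 0.16). A low level in WT replicate 2 was not particular to export genes. Its ratio to the mean of WT replicates 1 and 3 was 0.79 for Abca1 and 0.80 for Abcg1. It was lower for Thrsp (0.66), Lpin1 (0.73) and Gpam (0.75). Of the 37 other pathway genes described below, 15 were highest in WT replicate 2 among the WT libraries. Without WT replicate 2, 5 sterol genes were called higher and 1 lower, the median of the branch was 0.15, and 15% and 12.8% of all rows were called higher and lower. WT replicate 2 had a summed acinar level of 25954 FPKM, the lowest of the WT libraries. The part that this level had in the sterol pattern was not tested.

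**Figure D3:**
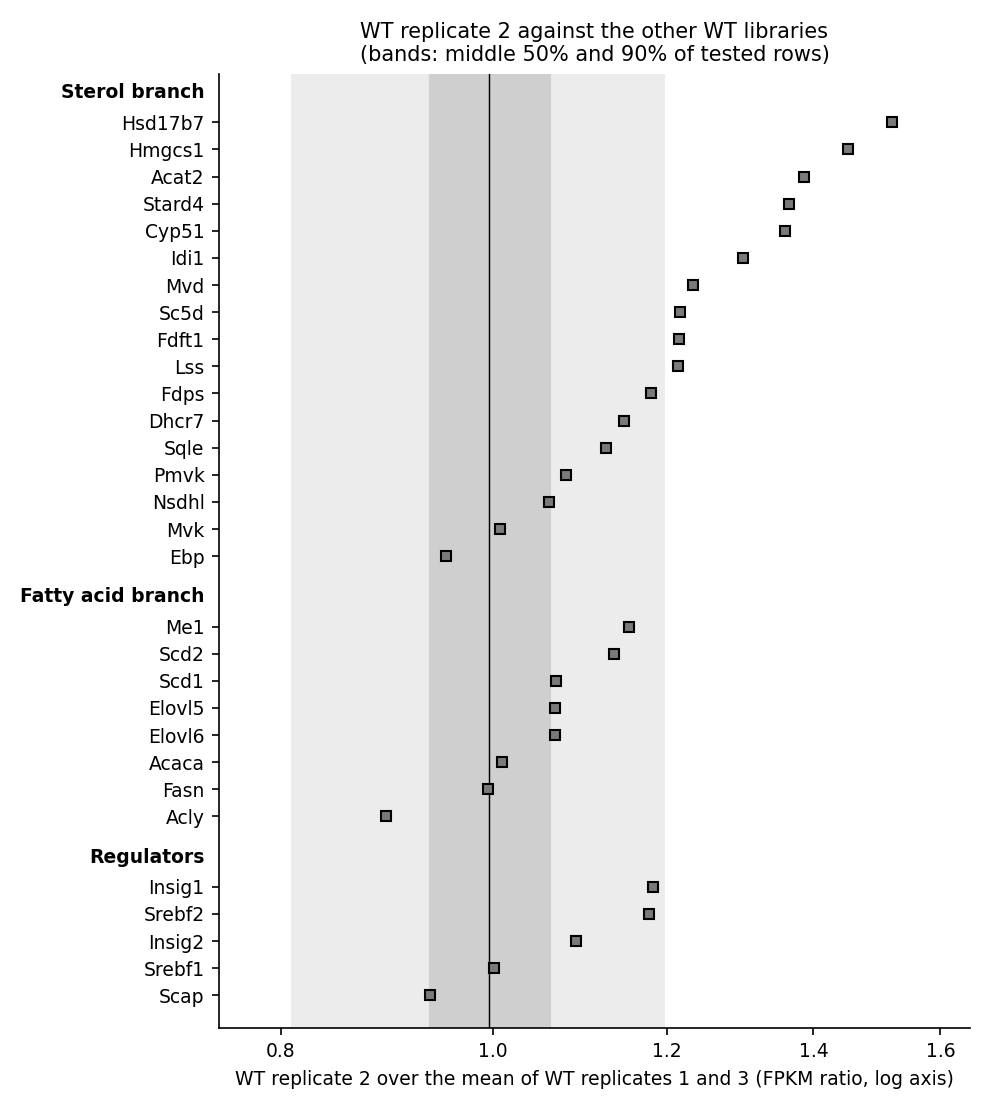
The horizontal axis (log scale) gives the FPKM of each tested member in WT replicate 2 over the mean of WT replicates 1 and 3, and the grey bands hold the middle 50% and 90% of tested rows. The upper 10 sterol genes lie beyond the wide band, up to 1.52 for Hsd17b7, whereas all fatty acid genes and regulators lie inside it.

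The promoters of the sterol genes were read from RefSeq (GRCm38.p6), which gave windows for 25 of the 31 members, here the 250 bases before each annotated start. SREBP factors bind sterol regulatory elements, commonly beside the CCAAT box bound by NF-Y. CCAAT or its reverse ATTGG was present in a window of 12 of 13 sterol genes, 4 of 7 fatty acid genes and 4 of 5 regulators, and in 33.8% of 32536 distinct windows of all genes. Several members have more than 1 window, which raises their chance of a match. Some RefSeq starts lie inside the gene as annotated in GENCODE M21. The only windows of Acaca and Acacb lie there, and so do the windows with the matches of Me1 and Dhcr7. The shares of the branches are therefore not a strict comparison of promoters. The element TCACNCCAC, searched on both strands, was found in 1 member, Hmgcs1, and in 1.04% of all windows. Its first 8 bases alone, TCACNCCA, a form looked for after the sequences had been read, were found also in Srebf2, and in 3.65% of all windows. Insig2, the other regulator that rose, has 3 windows, none with either form. A match is only a description of letters.

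The sequences shown are those of Srebf2, of the sterol gene with the highest mean, of the sterol genes that changed and for which a window was given, and of Acly for contrast, with annotated exons (GENCODE M21) trimmed away. Capitals mark CCAAT or ATTGG, the full sterol element in Hmgcs1 and only its 8-base form in Srebf2, and all are written 5′ to 3′ on the strand of the gene. The windows are chr15:82147019-82147180 (plus strand), chr13:119690101-119690350 (plus), chr10:76531355-76531587 (plus), chr9:42264301-42264550 (minus), chr5:114444061-114444268 (plus) and chr11:100528001-100528250 (minus).
Srebf2: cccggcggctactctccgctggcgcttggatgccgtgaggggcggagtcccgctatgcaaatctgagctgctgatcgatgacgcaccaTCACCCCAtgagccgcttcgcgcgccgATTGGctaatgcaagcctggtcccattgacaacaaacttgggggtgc
Hmgcs1: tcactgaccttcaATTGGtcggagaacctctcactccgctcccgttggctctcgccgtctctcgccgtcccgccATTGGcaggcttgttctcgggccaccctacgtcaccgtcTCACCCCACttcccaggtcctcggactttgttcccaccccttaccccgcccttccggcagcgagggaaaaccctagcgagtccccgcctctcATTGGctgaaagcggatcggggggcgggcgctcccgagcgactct
Lss: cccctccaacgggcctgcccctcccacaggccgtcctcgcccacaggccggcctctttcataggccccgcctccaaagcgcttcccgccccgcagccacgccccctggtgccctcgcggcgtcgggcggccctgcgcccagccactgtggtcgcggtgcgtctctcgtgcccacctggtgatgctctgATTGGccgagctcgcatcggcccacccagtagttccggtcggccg
Sc5d: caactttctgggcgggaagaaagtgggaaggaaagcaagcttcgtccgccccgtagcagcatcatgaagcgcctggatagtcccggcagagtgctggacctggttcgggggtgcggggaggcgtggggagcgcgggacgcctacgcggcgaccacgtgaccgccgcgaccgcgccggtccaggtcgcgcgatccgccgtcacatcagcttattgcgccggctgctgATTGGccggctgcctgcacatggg
Mvk: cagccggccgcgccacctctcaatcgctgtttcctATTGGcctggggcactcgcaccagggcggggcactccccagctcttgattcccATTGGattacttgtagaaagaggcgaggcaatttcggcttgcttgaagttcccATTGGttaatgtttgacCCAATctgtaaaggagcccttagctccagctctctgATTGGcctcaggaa
Acly: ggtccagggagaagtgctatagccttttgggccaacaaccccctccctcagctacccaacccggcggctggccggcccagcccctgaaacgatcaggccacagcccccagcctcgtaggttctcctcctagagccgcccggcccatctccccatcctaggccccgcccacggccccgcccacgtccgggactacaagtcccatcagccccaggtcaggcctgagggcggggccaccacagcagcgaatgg
The Mvk window, all that lies between Mvk and Mmab, holds 5 such CCAAT or ATTGG matches and was the richest of the member windows. The Acly window holds 0, and so does that of Elovl6, a gene that rose and whose window is not shown. Of the 34 member windows, 21 hold a match.

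In the fatty acid branch, 3 of 8 tested genes rose, 1 fell and 4 were not called. Over all tested rows 20.3% were called higher and 19.6% lower. The branch had a median log2 difference of 0.24. The median was 0.08 in KO replicate 1 alone, where that of the sterol genes was also 0.08, and 0.09 in a fit that included the acinar level. The median of all tested rows was -0.01 in both of these fits, as with the values as deposited. With equal sums outside the acinar list the median of the branch was 0.08, and that of all rows -0.15. Scd1, a stearoyl-CoA desaturase, had the largest difference of all members. It was at 1.32, 1.52 and 1.53 FPKM in WT and at 3.97, 11.7 and 6.90 FPKM in KO, so the lowest KO library was already above each WT library and the KO libraries differed widely (log2 difference 1.69, SE 0.30, adjusted p = 0.0064). In KO replicate 1 alone the difference was 1.02 (adjusted p = 0.0025), and it was 1.27 in a fit that included the acinar level (adjusted p = 0.023). Scd2, the paralog with the higher level, was at 38.5, 47.6 and 45.3 FPKM in WT and 43.6, 51.7 and 52.3 FPKM in KO (log2 difference 0.16, SE 0.10, adjusted p = 0.23). The ratio of Scd1 to Scd2 was 0.0342, 0.0320 and 0.0338 in WT and 0.0912, 0.226 and 0.132 in KO. Scd1 therefore remained the minor desaturase transcript in every library.

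Adipocytes express Scd1 strongly, and the defining adipocyte markers Plin1, Lep, Retn and Cfd were listed at 0 in all libraries, while Adipoq was at most 0.0643 FPKM. Of the 8 markers in that list only Fabp4 was tested, a gene of endothelial cells and macrophages as well, and it was higher in KO (log2 difference 0.73, adjusted p = 0.0073). The summed adipocyte list was 5.35 to 6.91 FPKM in WT and 9.66 to 13.2 FPKM in KO. Of 9 tested duct markers 3 were higher and 0 lower, beside 20.3% and 19.6% of all tested rows. The summed duct list was 652 to 722 FPKM in WT and 899 to 1178 FPKM in KO. Of 6 tested lymphocyte markers 3 were higher, with a summed level of 7.08 to 8.15 FPKM in WT and of 82.7, 163 and 16.8 FPKM in the KO libraries. The part of these cells in the fatty acid genes was not tested.

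Elovl6, the elongase that extends palmitate, was at 6.25, 6.44 and 5.82 FPKM in WT and at 10.2, 9.68 and 10.0 FPKM in KO. The KO libraries were close to one another and above all WT libraries (log2 difference 0.61, SE 0.06, adjusted p = 0.00091), with a difference of 0.64 in KO replicate 1 alone and a call in every fit. Elovl5, the elongase of polyunsaturated chains, was at 79.5 ± 3.04 FPKM in WT and at 77.2 ± 4.92 FPKM in KO libraries (log2 difference -0.04, SE 0.07, adjusted p = 0.61). The ratio of Elovl6 to Elovl5 was 0.0775 ± 0.00282 in WT and 0.129 ± 0.00521 in KO (SD, n = 3 per group).

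Of the enzymes that supply substrate, Me1 and Acly went in opposite directions. Me1, the cytosolic malic enzyme that yields NADPH, was at 6.71, 8.2 and 7.5 FPKM in WT and at 11, 12.8 and 13.3 FPKM in KO, without overlap (log2 difference 0.66, SE 0.09, adjusted p = 0.0031). Acly, ATP citrate lyase, which makes cytosolic acetyl-CoA for both branches and had the highest level per length of all members, was at 409, 354 and 383 FPKM in WT and at 274, 261 and 283 FPKM in KO. The highest KO library lay below the lowest WT library (log2 difference -0.48, SE 0.09, adjusted p = 0.0062), and the difference was -0.47 in KO replicate 1 alone. Both genes were called in every fit run. Some markers of endocrine and endothelial cells were lower beside Acly and Mvk. Called lower were 3 of 7 tested alpha cell markers and 3 of 9 beta cell markers. So were 1 of 3 delta cell markers and 3 of 6 endothelial markers, and 1 endothelial marker was called higher. Over all tested rows 19.6% were called lower and 20.3% higher. The summed alpha cell list was 19877 to 24085 FPKM in WT and 7236 to 13615 FPKM in KO, and the summed delta cell list was 5096 to 5375 and 2581 to 4640 FPKM. The summed endothelial list was 143 to 174 FPKM in WT and 130 to 150 FPKM in KO, and the summed beta cell list, which includes Ins1, was 37151 to 38915 and 35819 to 81201 FPKM. The beta cell factor Mafa, picked out after its values were seen, was at 197, 212 and 213 FPKM in WT. In KO it was at 101, 63.4 and 44.7 FPKM (log2 difference -1.63, adjusted p = 0.0044). It had the largest fall of the beta cell list, whose tested markers had a median log2 difference of -0.22. The beta cell markers G6pc2 (0.07), Slc30a8 (-0.004), Pdx1 (-0.14), Iapp (-0.22) and Slc2a2 (-0.24) were not called. The part of these cells in the lower genes was not tested.

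The enzymes that build the chain itself were not called. Fasn, fatty acid synthase, was at 14.1, 14.4 and 14.8 FPKM in WT and at 15.6, 17.8 and 22 FPKM in KO (log2 difference 0.32, SE 0.11, adjusted p = 0.058). KO replicate 3, with the largest acinar share, was the highest, and KO replicate 1, with the smallest, was the lowest of the KO libraries. In KO replicate 1 alone the difference was 0.11 (adjusted p = 0.28), in a fit that included the acinar level 0.13 (adjusted p = 0.30), and without KO replicate 1 0.43 (adjusted p = 0.010). Acaca, the acetyl-CoA carboxylase that makes malonyl-CoA, was at 5.06 ± 0.0352 FPKM in WT and at 4.72 ± 0.452 FPKM in KO libraries (adjusted p = 0.39). Acacb, its mitochondrial counterpart, was under the minimum for testing, at 0.272, 0.261 and 0.344 FPKM in WT and 0.147, 0.802 and 1.28 FPKM in KO, lowest in KO replicate 1 and highest in KO replicate 3.

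The branches were compared within each library as the mean deviation from the WT mean of each gene, a description with no test, since the members were chosen with earlier results known. The sterol mean over 17 genes was -0.11, 0.17 and -0.07 log2 units in WT replicates 1, 2 and 3 and 0.08, 0.05 and 0.16 in KO replicates 1, 2 and 3. All 3 KO libraries thus lay inside the range of the WT libraries, but its upper end was set by WT replicate 2 alone. WT replicates 1 and 3 lay below each KO library. The fatty acid mean over 8 genes was -0.04, 0.04 and 0.00402 in WT and 0.22, 0.41 and 0.43 in KO, above WT in each KO library.

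The sterol mean minus the fatty acid mean was -0.07, 0.14 and -0.07 in WT and -0.14, -0.36 and -0.27 in KO, a difference of -0.26 between the group means. It depended on the members included, a choice made after seeing the data. Without Scd1, the gene with the largest rise, the KO values were -0.03, -0.08 and -0.09, the WT values were -0.07, 0.14 and -0.06, and the difference between the group means was -0.07. The fatty acid mean without Scd1 was 0.11, 0.14 and 0.25 in KO and -0.04, 0.04 and -0.00162 in WT. Without Scd1 the branch differences of the KO libraries overlapped those of WT replicates 1 and 3. Without both Scd1 and Acly, the gene with the largest fall, they were -0.12, -0.20 and -0.20 in KO and -0.05, 0.11 and -0.06 in WT, a difference of -0.17 between the group means, with each KO library below all WT libraries.

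**Figure D4:**
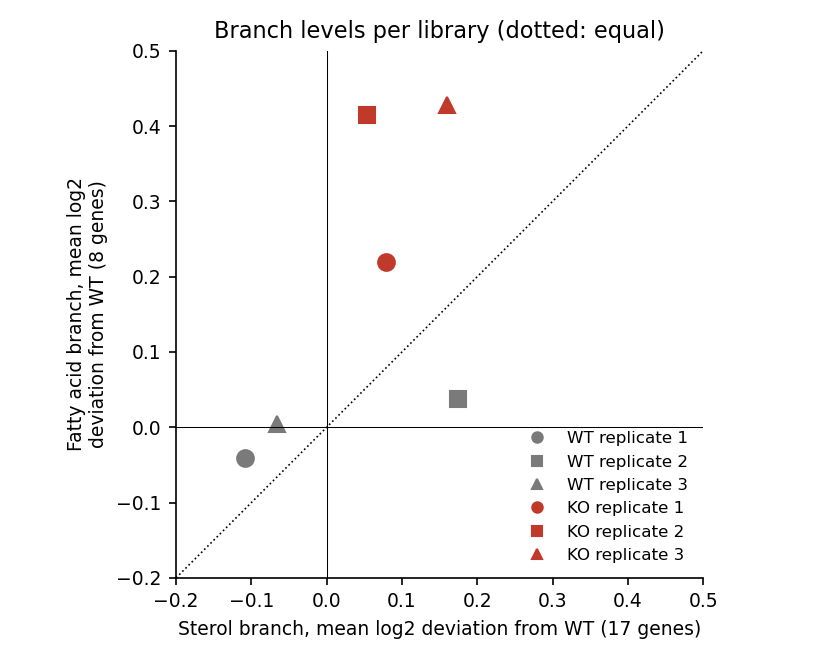
Each point is a library, with the mean log2 deviation of the 17 sterol genes on the horizontal axis and that of the 8 tested fatty acid genes on the vertical axis, both relative to WT; on the dotted line they are equal. KO libraries lie at 0.22 to 0.43 on the fatty acid axis, and WT replicate 2 reaches 0.17 on the sterol axis, beyond all KO libraries.

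Of 38 other genes of lipid and sterol synthesis and its control, listed by role, 37 were found and tested. Of these, 12 were higher, 7 lower and 18 not called, beside 20.3% higher and 19.6% lower over all tested rows. Their median log2 difference was 0.01, and in KO replicate 1 alone it was -0.04. Among genes of fatty acid elongation, members differed in direction. Elovl7, an elongase of very long chains, rose from 1.34 ± 0.0981 to 4.32 ± 0.401 FPKM (log2 difference 1.19, adjusted p = 0.00046). The reductase Hsd17b12 rose from 52.3 ± 0.489 to 86.8 ± 11.6 FPKM (0.71, adjusted p = 0.0022), and the dehydratase gene Hacd3, listed as Ptplad1, rose from 21.9 ± 1.54 to 35.0 ± 2.76 FPKM (0.65, adjusted p = 0.0017). Tecr, the last enzyme of the cycle, was chosen with its values in view and fell, with 92.8 ± 0.623 FPKM in WT and 80.2 ± 5.54 FPKM in KO (-0.21, adjusted p = 0.039), without a call in KO replicate 1 alone (-0.10, adjusted p = 0.22).

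Around the regulators, Erlin1, an endoplasmic reticulum protein that restrains SREBP release, rose from 6.39 ± 1 to 13.3 ± 0.832 FPKM (log2 difference 0.96, adjusted p = 0.0011). The LXR gene Nr1h2 rose from 16.7 ± 1.12 to 24.4 ± 1.39 FPKM (0.52, adjusted p = 0.0023). Their paralogs, named after their values were seen, did not rise. Erlin2 was called lower, from 19.8 ± 0.213 to 17.1 ± 1.37 FPKM (-0.20, adjusted p = 0.048). Nr1h3, at 4.12 ± 0.422 FPKM in WT and 3.24 ± 0.354 FPKM in KO, was below WT in each KO library without a call (-0.27, adjusted p = 0.062). Lpin2, a phosphatidate phosphatase of glycerolipid synthesis, rose from 7.05 ± 0.805 to 15.2 ± 1.64 FPKM (1.01, adjusted p = 0.0009). Elovl7, Hsd17b12, Ptplad1, Erlin1, Nr1h2 and Lpin2 were called in KO replicate 1 alone as well. The citrate carrier Slc25a1 (55.7 ± 0.497 and 51.2 ± 2.40 FPKM, adjusted p = 0.12) and the SREBP protease Mbtps1 (30.4 ± 0.484 and 27.9 ± 1.27 FPKM, adjusted p = 0.11) were the uncalled genes with the highest means.

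Named after their values were seen, 3 further genes of fatty acid synthesis were lower, as Acly was, beside the same marker values. Mid1ip1, an activator of acetyl-CoA carboxylase, fell from 64.4 ± 1.97 FPKM in WT to 50.8 ± 1.56 FPKM in KO (log2 difference -0.34, adjusted p = 0.0044). The carbohydrate response factor Mlxipl fell from 60.5 ± 6.25 to 45.0 ± 3.44 FPKM (-0.42, adjusted p = 0.013), and the NADPH source G6pdx fell from 11.1 ± 0.714 to 8.49 ± 0.183 FPKM (-0.34, adjusted p = 0.0070). Also called lower in the same list, and named after their values were seen, were Mlx (-0.15, adjusted p = 0.0498) and Acat1 (-0.32, adjusted p = 0.029), beside Tecr. Some other genes of the list did not fall with them. Fads2 (0.36, adjusted p = 0.041) and Elovl1 (0.41, adjusted p = 0.013) were called higher, and Pgd (-0.05, adjusted p = 0.64) was not called. In KO replicate 1 alone the log2 difference was 0.13 for Fads2 and 0.22 for Elovl1. The sterol oxidase gene Msmo1, listed as Sc4mol and also named after its values were seen, was at 98.7, 127 and 95.9 FPKM in WT and at 139, 135 and 137 FPKM in KO (0.36, adjusted p = 0.038). Like most sterol members it was highest in WT replicate 2 among the WT libraries, and its adjusted p was 0.0075 without that library and 0.12 in KO replicate 1 alone.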

How the data were processed

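RNA sequencing was done on total RNA of islets in 6 libraries, grouped by the genotype in the sample titles. Build mm10, TopHat2 2.0.8b and Cuffdiff 2.1.1 are named in the submitters' processing notes. The unit of the deposited files was inferred from these tools and from the range of values as FPKM made by the authors, whose annotation, strand setting and scaling could not be read from the labels or headers. Values were used as deposited, and the median-of-ratios factors computed from them lay between 0.987 and 1.01. Rows with a mean of at least 1 FPKM were tested on log2(FPKM + 1) with limma 3.58.1 (R 4.3.3; mean-variance trend, two-sided, no term but the group, Benjamini-Hochberg over all tested rows). The method was tested on simulated data. The members, role groups, lists and alternatives were chosen with earlier results of these data known, and every member could be named, with up to 6 called and 2 uncalled genes of the other pathway list (smallest adjusted p, highest mean). KO replicate 1 alone, the acinar covariate, equal sums without insulin rows and the branch without Scd1, or without Scd1 and Acly, were chosen after seeing the data. Labels call the libraries biological replicates. Older symbols were matched through RefSeq synonyms. Tables and plots used Python 3.11.15, pandas 2.3.3 and matplotlib 3.10.9.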

Additional observations from a re-analysis of the deposited data

How the results depend on the processing

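Leaving out each library in turn gave 1381 to 2890 rows called higher and 1100 to 2837 lower over all genes, and 6 to 10 members higher and 2 lower. The all-gene counts fell most without WT replicate 1 (1381 and 1100) and WT replicate 3 (1397 and 1110), and without WT replicate 2 1494 rows were lower. With equal sums outside the acinar list, 730 rows were higher and 1410 lower, 4 members were higher, and the medians were -0.0392 for sterol genes, 0.0831 for fatty acid genes and -0.0696 for regulators, while the median of all rows moved to -0.15. Ins1, listed at 43721 and 48334 FPKM only in KO replicates 2 and 3, enters those sums. Without the insulin rows, 1211 rows were higher and 1489 lower, 5 members were higher, and the regulator median was 0.0198. In KO replicate 1 alone 1267 rows were lower and the fatty acid median was 0.0819, and in a fit that included the acinar level these were 1237 and 0.0897. A mean of at least 5 FPKM left out Mvk, Scd1, Acaca and Acat2, so that 1 member was lower and the difference between the branches was -0.0722, beside -0.0667 when Scd1 alone was left out and -0.17 when Scd1 and Acly were. Another pseudocount, median-of-ratios rescaling and quantile normalization changed no member's call. With a robust variance prior and with array weights Fasn was called (adjusted p = 0.049 and 0.021). Whether the replicate numbers pair the libraries is not known. Deviations of same-numbered libraries from their group means correlated at -0.206, -0.0885 and 0.0276 over genes. With so few libraries per group, and acinar levels that differ among the KO libraries, these correlations cannot exclude a pairing. With the replicate block 7 members were higher, 2 lower, and Lss and Sc5d lost their calls.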
